A study of Mus musculus with 16 samples.

Results

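Chemokines are small secreted proteins that direct the movement of immune cells, and chemokine receptors are the G protein-coupled receptors on those cells that read them. The genes described here are the mouse CC and CXC chemokines and receptors whose symbol begins with Ccl, Cxcl, Ccr or Cxcr followed by a digit. The rule used names only, and no measured value. Of 59 such symbols in the RefSeq gene table, 49 were represented on the array, by 61 probes, among 19096 named genes in all. A probe was kept when the scanner software judged its spot well above background on each of the 4 arrays of some group, and 37 of the 49 genes, among 15469 genes in all, had such a probe.

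The study compared fat gene expression with and without the glucocorticoid receptor in the animals' adipose cells. Its 4 groups of male mice were controls, called wild-type in the design text, and mice with an adipose-tissue specific knockout of the receptor (AdipoKO), each measured in white and in brown adipose tissue on 4 one-colour arrays. The promoter that drives the deletion, the strain, the age and any treatment are not given in the sources used here. Levels are log2 of the processed spot intensity minus the 75th percentile of the array, so a difference of 1 is a doubling, and levels of different probes are not comparable.

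Background on the gene family helps to place the values. Homeostatic chemokines organise lymphoid tissue: CCL19 and CCL21 draw cells that carry the receptor CCR7, which are mainly naive T cells and migrating dendritic cells, and CXCL13 draws B cells through CXCR5. Inflammatory chemokines are induced in injured or inflamed tissue and recruit monocytes, eosinophils, neutrophils or effector lymphocytes; in fat, CCL2 and its receptor CCR2 are known for monocyte entry. Glucocorticoids are known to repress many inflammatory genes through their receptor.

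Sequences before the start sites are shown for 3 lymphoid homeostatic ligands, each of which was highest in a 3-array knockout sample described below, and for Cxcl14, the only gene of the family past the threshold in a comparison over the 9 samples. They are the 250 bases before the RefSeq start site, printed 5′ to 3′ on the gene's strand, from the GRCm38.p6 promoter table, which held 36 of the 49 genes in 40 windows; Ccr7 was not among them. Capitals mark matches to 3 patterns searched on both strands: GGG and CC with any 5 bases between them, of the kind NF-kappaB binds, GAAA and GAAA with any 2 bases between them, of the kind interferon-regulated factors bind, and GNACA and TGTNC with any 3 bases between them, of the kind the glucocorticoid receptor binds.
Ccl19, chr4:42756366-42756615, minus strand: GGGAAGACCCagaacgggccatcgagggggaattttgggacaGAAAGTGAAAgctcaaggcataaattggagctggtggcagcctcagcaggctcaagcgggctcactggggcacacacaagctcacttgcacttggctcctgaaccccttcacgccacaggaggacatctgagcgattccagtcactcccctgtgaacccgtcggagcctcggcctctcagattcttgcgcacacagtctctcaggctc
Ccl21a, chr4:42773992-42774241, minus strand: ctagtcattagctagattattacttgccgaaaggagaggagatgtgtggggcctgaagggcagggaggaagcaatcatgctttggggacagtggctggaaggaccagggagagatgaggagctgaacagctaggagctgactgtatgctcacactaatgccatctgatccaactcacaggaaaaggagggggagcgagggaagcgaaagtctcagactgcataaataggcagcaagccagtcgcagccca
Cxcl13, chr5:95956689-95956938, plus strand: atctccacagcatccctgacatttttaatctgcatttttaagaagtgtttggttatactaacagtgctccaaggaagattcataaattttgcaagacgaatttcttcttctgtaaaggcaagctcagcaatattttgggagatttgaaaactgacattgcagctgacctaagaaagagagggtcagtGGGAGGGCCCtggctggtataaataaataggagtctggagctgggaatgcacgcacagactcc
Cxcl14, chr13:56296552-56296801, minus strand: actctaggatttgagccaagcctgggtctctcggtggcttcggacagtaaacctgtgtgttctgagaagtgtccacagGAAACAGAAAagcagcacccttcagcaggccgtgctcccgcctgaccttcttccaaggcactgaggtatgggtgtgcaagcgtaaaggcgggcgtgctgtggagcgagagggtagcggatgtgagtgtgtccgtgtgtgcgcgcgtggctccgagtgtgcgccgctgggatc
The Ccl19 window held a match to the first pattern that begins 250 bases before the start site and a match to the second that begins 208 bases before it. In the Cxcl13 window the first pattern matched 63 bases before the start, and in the Cxcl14 window the second matched 172 bases before it. No match of one pattern overlapped a match of another in these 4 windows, and the Ccl21a window held none. The first pattern occurred in 24 of the 40 windows of the family and in 45.8% of all 32851 promoter windows of that length, the second in 3 of 40 and 2.98%, and the third in 0 of 40 and 0.387%. These are letter matches only, and nothing about the factors follows from them.

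Several samples need a word before the results. Within each group, arrays were compared bright spot by bright spot, and 9 pairs of arrays differed by less than the error the scanner software gives its own spots. Such arrays were averaged and counted once, which left 9 distinct samples in all: white control arrays 1 and 4, white control arrays 2 and 3, white knockout array 1, white knockout arrays 2, 3 and 4, brown control array 1, brown control arrays 2 and 3, brown control array 4, brown knockout array 1, and brown knockout arrays 2, 3 and 4. The design text names 4 biological replicates per group, which this averaging does not follow. The knockout sample measured on 3 arrays is called the 3-array sample of its tissue below, and the other the single-array sample. Nr3c1, the targeted gene, encodes the glucocorticoid receptor. Its level was 2.49 and 2.21 in white control and 1.58 and 1.34 in white knockout samples, and 2.53, 2.69 and 2.34 in brown control and 1.57 and 1.76 in brown knockout samples. It was 1.85-fold lower in white and 1.81-fold lower in brown knockout, with no overlap between groups. Ucp1, which defines brown adipocytes, was at 6.61 and 8.13 in brown control arrays 1 and 4 and at 5.70 and 5.87 in brown knockout samples, but at -0.75 in brown control arrays 2 and 3, where the white samples lay between -2.44 and -0.92. That sample went against its brown label by this marker, so the main brown results are also given without it. All 4 skeletal muscle genes listed were higher in brown than in white controls, by a median of 11.64.

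No chemokine or receptor passed the threshold of 0.05 on the Benjamini-Hochberg adjusted p of limma for knockout against control, in white or in brown fat, and 0% of all genes did. At an unadjusted p under 0.05, 1 of the 37 was higher and 5 were lower in white knockout, where 3.57% and 6.39% of all genes were; 3 were higher and 1 lower in brown knockout, where 2.93% and 4.11% were. Counting instead the genes whose knockout samples all lay beyond all control samples, 2 were higher and 9 lower in white, against 16.4% and 24.2% of all genes, and 8 were higher and 5 lower in brown, against 13% and 21%. The share of 9 of 37 lower in white is near that background. With 2 or 3 samples in a group, all differences below are given with their standard error (SE) from the fit and none is a call unless said. When the 16 arrays were fitted as separate samples, 13 of the 37 were called in white, where 44.8% of all genes were, and 13 in brown, where 30.6% were. That fit treats repeated arrays as samples.

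**Figure D1:**
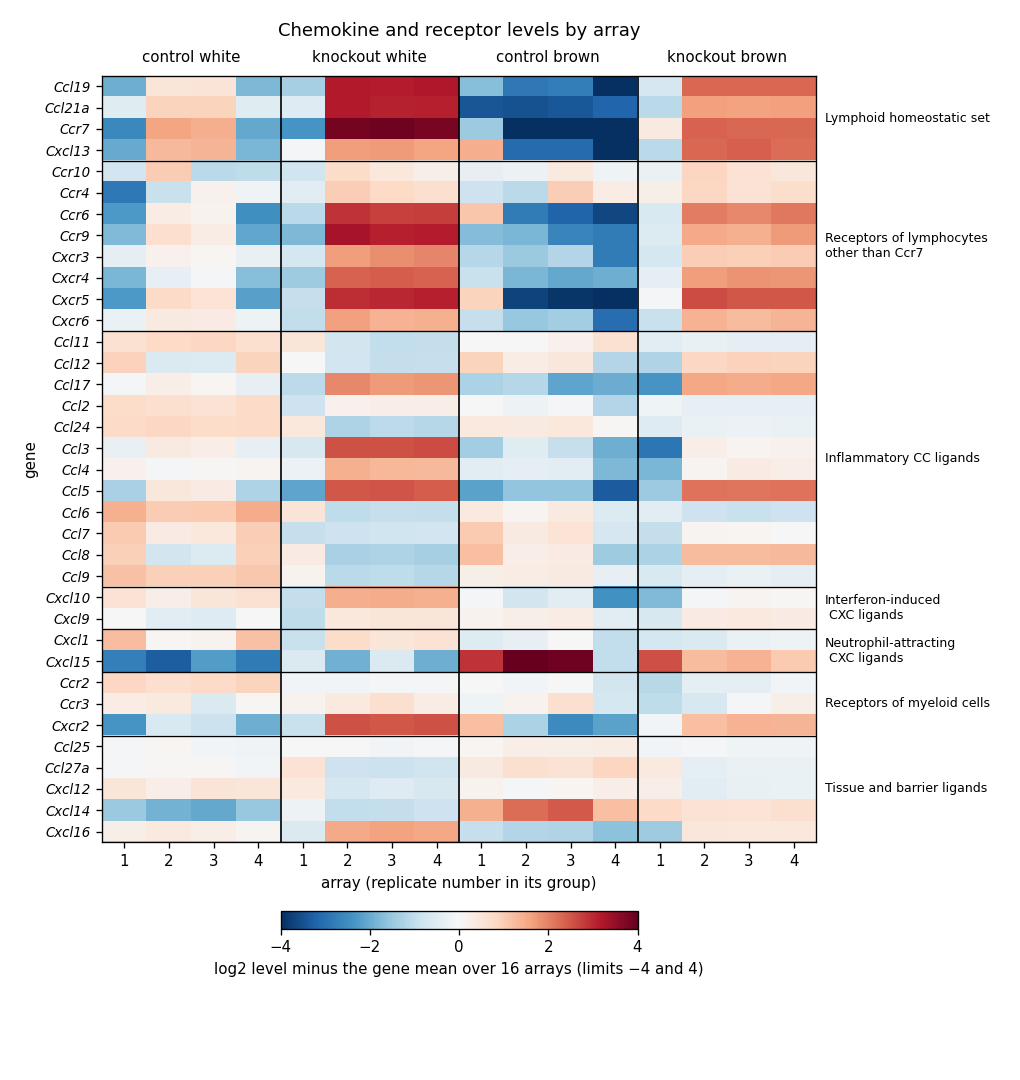
Level of the measured genes of the family (rows, grouped by role; 1 is not drawn) on each of the 16 arrays (columns), as log2 minus the gene's mean over the arrays; red is above and blue below that mean. Columns of 1 distinct sample look alike, and the lymphoid homeostatic genes are red on knockout arrays 2, 3 and 4 of both tissues.

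The lymphoid homeostatic genes were higher in brown knockout than in brown control fat, by a median of 3.69 on the log2 scale over the 4 that were measured. Ccl21a, a T zone ligand of CCR7, was at 0.51, 0.49 and 0.77 in the 3 brown control samples and at 2.85 and 5.56 in the 2 brown knockout samples. The groups did not overlap, and the difference was 3.62 ± 1.17 (SE; n = 3 and 2), or 12.3-fold, with a limma adjusted p of 0.619. The Ccl21a probe may also read the near-identical copies of the gene, so its value is that of the copies together. Ccl19, the other ligand of CCR7, was at 2.20, 1.09 and -0.41 in brown control and at 3.25 and 6.21 in brown knockout samples. Its difference was 3.77 ± 1.57 (SE), again without overlap, and its second probe gave 3.32. Ccr7, their receptor, was at -1.54, -4.29 and -5.12 in brown control and at 0.27 and 2.24 in brown knockout. That is a difference of 4.90 ± 2.05 (SE), the largest of the 37 genes in brown fat, with a limma adjusted p of 0.619. Cxcl13, the B cell zone ligand, overlapped: brown control array 1 was at 2.53, between the knockout values of -0.02 and 3.37, while the other controls were at -2.02 and -3.72. The difference was 2.74 ± 1.99 (SE).

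In brown fat the lead came from the 3-array sample but did not rest on it alone. The median of the 4 genes above the control mean was 5.11 in the 3-array sample and 2.28 in the single-array sample. Without the 3-array sample the differences were 2.26 for Ccl21a, 2.29 for Ccl19 and 3.92 for Ccr7, and 1.05 for Cxcl13. Without the brown control sample that lacked Ucp1 they were 3.57, 3.83, 4.58 and 2.27. Among the arrays of slide 4, which held controls and knockouts together, they were 3.55, 4.36, 5.995 and 4.53 in the same order.

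In white fat the same 4 genes were split between the knockout samples. Ccl19 was at 2.04 and 4.41 in white control and at 2.57 and 7.07 in white knockout samples. Ccl21a was at 3.45 and 4.82 in white control against 3.40 and 7.05 in white knockout. For Ccr7 the values were -2.40 and 1.42 in control and -2.45 and 3.74 in knockout, and for Cxcl13 -0.87 and 2.38 against 1.02 and 2.71. In each of the 4 the 3-array sample was the highest white sample, and the control arrays 2 and 3 stood above control arrays 1 and 4. Differences were 1.60 ± 1.72 (SE) for Ccl19, 1.09 ± 1.28 (SE) for Ccl21a, 1.14 ± 2.25 (SE) for Ccr7 and 1.11 ± 2.18 (SE) for Cxcl13. The median of the set was 1.12, and it turned to -0.70 without the 3-array sample and to -0.06 without control arrays 1 and 4. No difference between the knockout effects of the tissues passed limma's threshold for any of the 37 genes, and the smallest p in this set, for Ccl21a, was 0.187 before adjustment.

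Receptors of lymphocytes followed the same samples. All 8 measured receptors other than Ccr7 had a higher mean in brown knockout, by a median of 2.16. Of these, Ccr4 and Ccr10 passed the filter only through the brown knockout arrays, so their direction is not independent of it. Without overlap 4 were higher, Cxcr3, Cxcr4, Cxcr6 and Ccr9, where 13% of all genes were. Cxcr3, the receptor of effector T cells for CXCL9 and CXCL10, was at -0.41, -0.61 and -2.07 in brown control and at 0.04 and 1.71 in brown knockout, a difference of 1.90 ± 0.88 (SE). Cxcr6, which binds CXCL16, differed by 2.04 ± 0.99 (SE), and Cxcr4, which binds CXCL12, by 2.28 ± 1.17 (SE), with the same value of 2.28 from its second probe. Cxcr5, the B cell receptor for CXCL13, was at 1.65, -3.06 and -5.02 in brown control and at 0.67 and 3.28 in brown knockout. It therefore overlapped through brown control array 1, at a difference of 4.12 ± 2.15 (SE). Without the brown control sample that lacked Ucp1, all 8 still had the higher mean, by a median of 2.11. Then 4 were higher without overlap, where 16% of all genes were. In white fat the 8 receptors also had a higher mean, by a median of 1.26, but all 8 overlapped. In the single-array white knockout sample all but Ccr4, at 0.50 above, lay below the control mean, from -1.09 for Ccr9 to -0.02 for Ccr6. For these the higher white mean came from the 3-array sample. Ccr6, the CCL20 receptor of B cells and some T cells, ran from -1.97 in white control arrays 1 and 4 to 3.19 in the white 3-array sample.

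T cell markers were higher in the brown knockout samples in which these genes were higher. The list of lymph node stroma and vessel genes did not separate the brown groups. Of 9 tested T cell markers, of 10 listed, 8 were higher in brown knockout without overlap, where 13% of all genes were. The median difference of the 9 was 3.92. Their summed level, which is log2 of the sum of their unlogged levels, ran from 0.05 to 1.63 over brown controls and was 4.03 and 5.72 in brown knockouts. Such sums, here and below, weigh the brightest probes most. In white fat that sum was 1.83 and 3.96 in controls and 1.73 and 6.31 in knockouts. The 7 tested B cell markers, of 8 listed, summed to -0.57, 0.47 and 5.18 in brown control and to 4.24 and 6.53 in brown knockout samples, and to 1.95 and 4.69 in white control and 3.34 and 7.07 in white knockout samples. Brown control array 1, which was high for Cxcl13, Cxcr5 and Ccr6, was high for B cell markers and not for T cell markers. Ordered from highest to lowest, the 9 samples fell in the same order for Cxcr5, Ccr6 and Cd79b, a B cell receptor subunit. Glycam1, a mucin made by the high endothelial venules of lymph nodes, was at 6.24 in the white and 5.93 in the brown 3-array sample, at 4.00 in white control arrays 2 and 3, and at -6.58 in brown control array 4. The 6 genes listed for lymph node stroma and its vessels include ones found in other tissue. They summed to 4.34 and 5.22 in white control and to 3.86 and 6.62 in white knockout. In white knockout 2 of the 6 were lower and 0 higher without overlap, where 24.2% and 16.4% of all genes were. In brown fat the sums were 4.24, 3.03 and 3.66 in control and 3.39 and 6.33 in knockout, and 0 of the 6 separated the groups. Ranked by Ccr7 the samples kept their Glycam1 rank in 7 of 9 cases and moved by at most 1 place. Orders were compared for every measured gene of the family against several markers, and only these pairs are given. The part of lymph node tissue or of lymphocyte number in these differences was not tested. In whole tissue, fewer cells of a type and less RNA per cell cannot be told apart.

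**Figure D2:**
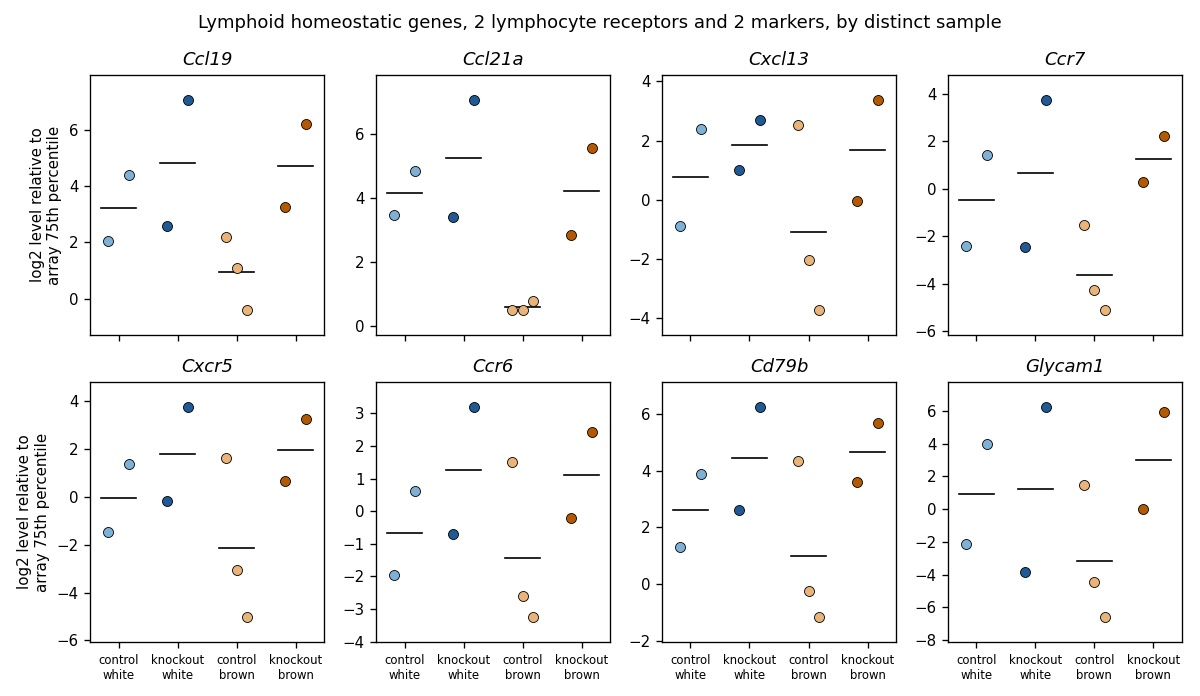
Log2 level relative to the array's 75th percentile of the 4 lymphoid homeostatic genes, the receptors Cxcr5 and Ccr6, and the markers Cd79b and Glycam1; each point is a distinct sample and each bar the group mean. In brown fat both knockout samples lie above all controls for Ccl19, Ccl21a and Ccr7. In white fat 1 knockout sample is the highest for the 4 lymphoid homeostatic genes, and the other lies within the control range or just below it.

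Several inflammatory genes, among them Ccl9, Ccl6, Ccl7 and Ccr2, had lower levels in white knockout fat without overlap, though none passed the adjusted threshold. Over the 21 measured genes of the inflammatory set, ligands and receptors together, the white median was -0.60, beside -0.03 over all genes, with 13 lower and 8 higher on average; 8 were lower and 1 higher without overlap, where 24.2% and 16.4% of all genes were. Of the 12 inflammatory CC ligands measured, 8 had a lower and 4 a higher mean. Ccl9, a macrophage ligand of CCR1, was at 2.34 and 2.18 in white control and at 1.37 and 0.14 in white knockout. It was 2.83-fold lower, with a difference of -1.50 ± 0.42 (SE; n = 2 and 2) and a limma adjusted p of 0.425. Ccl6, a close relative, was at 3.97 and 3.55 in control and 3.02 and 1.55 in knockout, a difference of -1.47 ± 0.53 (SE). Ccl7, a monocyte attractant that binds CCR2, was at -0.24 and -0.87 in control and at -2.18 and -2.05 in knockout. Both knockout samples were equally low, and the difference of -1.56 ± 0.59 (SE) was -1.57 on a second probe. Ccr2 itself was at 0.25 and 0.12 in control and at -0.73 and -0.68 in knockout, or 1.85-fold lower, with a difference of -0.89 ± 0.36 (SE) on both of its probes. Ccl2, the main CCR2 ligand, was at 0.85 and 0.71 in control and -0.73 and 0.33 in knockout. The eotaxins Ccl11 and Ccl24, which draw eosinophils through CCR3, differed by -0.92 ± 0.45 (SE) and -1.14 ± 0.47 (SE), and their low value was that of the 3-array sample, at 0.06 for Ccl11 and -0.14 for Ccl24, while the single-array sample was at 1.44 and 1.41.

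The unadjusted p was 0.0093 for Ccl9, 0.027 for Ccl6, 0.034 for Ccl7, 0.043 for Ccr2 and 0.045 for Ccl24, and the limma adjusted p of these 5 lay between 0.425 and 0.497. Leaving out the single-array knockout sample gave 4 calls by limma, all lower, where 7.89% of all genes were called lower: Ccl24 at -1.91, Ccl11 at -1.61, Ccl6 at -2.21 and Ccl9 at -2.11, with adjusted p from 0.0292 to 0.0385. That fit holds 1 white knockout sample, which is assumed to vary like the samples of the other groups. Leaving out the 3-array sample instead gave -0.89 for Ccl9 and -0.74 for Ccl6, with no call, while Ccl7 stood at -1.62 and Ccr2 at -0.91. Among the arrays of slide 2, which held controls and knockouts, the differences were -1.47 for Ccl9, -1.59 for Ccl7 and -0.94 for Ccr2.

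Other inflammatory genes were not lower in both white knockout samples. Ccl5, which cytotoxic T and NK cells make, was at 2.86 and 4.54 in white control and at 2.04 and 6.61 in white knockout. Ccl3, an inflammatory ligand of CCR1, was highest in the 3-array sample, at -1.04 against values from -4.24 to -3.28 elsewhere in white fat. Ccl8 and Ccl12, monocyte attractants, overlapped: Ccl8 was at 2.20 and 0.62 in white control and 1.59 and -0.03 in white knockout, and Ccl12 at -0.16 and -1.63 against -1.05 and -1.95. Ccl17, a ligand of CCR4 that dendritic cells make, had the same form, at -0.67 there, while the other white samples ran from -3.51 to -2.30. Both tested markers of mast cells and eosinophils, of 4 listed, had a lower mean in white knockout; they summed to -0.70 and -0.35 in control and to 0.19 and -2.50 in the single-array and 3-array knockout samples, so that the 3-array sample was low for them as for the eotaxins. Of 7 macrophage markers, 4 were lower without overlap in white knockout, where 24.2% of all genes were. The 7 had a median difference of -0.28, and summed to 4.68 and 4.60 in control and 4.01 and 4.69 in knockout samples. The 6 adipocyte markers summed to 10.5 and 10.4 in white control and to 10.4 and 9.33 in white knockout, again lowest in the 3-array sample. All 3 erythroid markers were lower without overlap in white knockout, beside the same 24.2% of all genes. Their median was -1.69, and they summed to 8.03 and 8.06 in control against 7.30 and 5.50. The 4 mesothelial markers all had a lower mean, also with a median of -1.69 but with overlap, and summed to 4.63 and 3.76 in control against 4.44 and 0.50. Of 4 endothelial markers 3 were lower without overlap, again beside 24.2% of all genes. The 4 had a median of -0.55, and summed to 3.99 and 4.02 against 3.74 and 3.45. The part of any of these cell types in the lower ligands was not tested.

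In brown fat the inflammatory set showed no common direction, with a median of -0.06, beside -0.12 over all genes. Its sign turned under several settings, given in the section on processing. Ccl11, Ccl24 and Ccl9 were lower in brown knockout without overlap between distinct samples, by -0.64 ± 0.41, -0.66 ± 0.43 and -0.55 ± 0.39 (SE). These were the 3 of 21 in that direction, where 21% of all genes were lower without overlap, so the count is not above the background. Without the brown control sample that lacked Ucp1 the median of the set was 0.11, with 3 of 21 lower without overlap where 27% of all genes were. Ccl7 differed by -0.72 ± 0.54 (SE) and Ccr2 by -0.45 ± 0.33 (SE), both with overlap. Ccl2 stood at 0.10, -0.05 and -1.07 in brown control and -0.08 and -0.23 in brown knockout, within the control range. Ccl5 went the other way: it was at 1.99, 2.56 and 0.80 in control and at 2.68 and 6.29 in knockout, a difference of 2.70 ± 1.54 (SE) that was carried by the 3-array sample. None of these passed the adjusted threshold of limma, where the smallest adjusted p in the set was 0.619.

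Cxcl9, Cxcl10 and Cxcl1, ligands of CXCR3 and CXCR2, overlapped between genotypes in both tissues. Cxcl10, an interferon-induced ligand of CXCR3, was at 0.56 and 0.35 in white control and at -0.99 and 1.43 in white knockout. In brown fat it was at -0.09, -0.61 and -2.45 in control and at -1.78 and 0.00 in knockout. Cxcl9, its relative, lay between 0.72 and 2.20 over all 9 samples, with differences of -0.04 ± 0.56 (SE) in white and -0.13 ± 0.51 (SE) in brown fat. Cxcl1, which draws neutrophils, differed by -0.80 ± 0.58 (SE) in white and 0.02 ± 0.53 (SE) in brown fat, the latter with a sign that turned under quantile normalization and median centring. Cxcr2, its receptor, was at -2.01 in the white 3-array sample against values from -6.71 to -5.29 in the other white samples. The summed level of 3 neutrophil markers was also highest there among white samples, at 1.40 against -1.44 to 0.14, and the part of neutrophils was not tested. A second Cxcr2 probe, which failed the filter, gave a knockout difference of 1.04 in white and 0.09 in brown fat. The first Cxcr2 probe gave 2.27 and 1.56, and it passed the filter only through the knockout arrays.

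**Figure D3:**
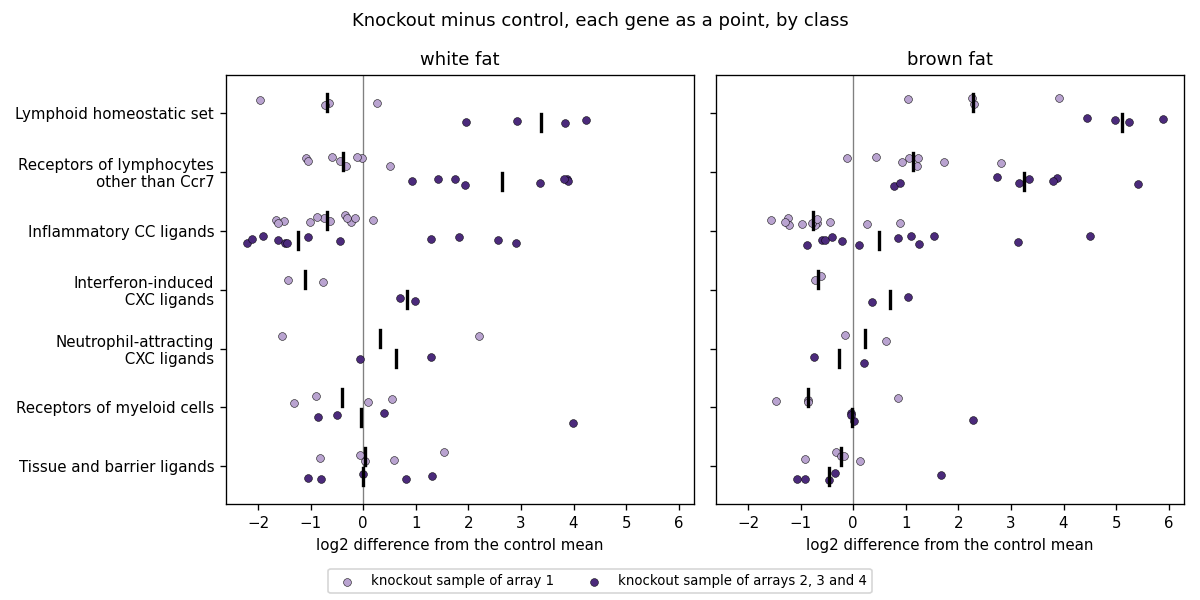
Difference of each knockout sample from the control mean of its tissue, in log2 units, for the 37 genes by role; each point is a gene, light for the single-array and dark for the 3-array knockout sample, and the black bar is the median of the role in that sample. In white fat the lymphoid set has a median of -0.70 in one sample and 3.38 in the other, and in brown fat 2.28 and 5.11.

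Cxcl14, a chemokine that brown adipocytes are known to secrete, was the gene of the family that differed most plainly between the tissues, and its knockout differences were opposite in the 2 tissues. It was at -0.21 and -0.67 in white control and at 1.10 and 0.37 in white knockout samples, and at 2.72, 3.63 and 2.51 in brown control and 2.04 and 1.88 in brown knockout samples. Within each tissue no array of one genotype overlapped with the other. The level was 2.26-fold higher in white knockout, by 1.17 ± 0.43 (SE; n = 2 and 2; unadjusted p = 0.030 in limma), and 1.98-fold lower in brown knockout, by -0.99 ± 0.40 (SE; n = 2 and 3; unadjusted p = 0.041). The difference between these effects was -2.16 ± 0.59 (SE), with an unadjusted p of 0.0077 in limma and an adjusted p of 1, where 0.601% of all genes had an unadjusted p under 0.05 in the other direction and 2% in this one. Fitted on 16 separate arrays it was -2.19 with a limma adjusted p of 0.0128, where 2.61% of all genes were called lower. That fit treats repeated arrays of 1 sample as separate samples, so its p overstates the replication. On slide 2 alone the white difference was 1.19, and on slide 4 alone the brown difference was -1.16. Without the brown control sample that lacked Ucp1, which was also the highest for Cxcl14, the brown difference shrank to -0.65.

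Between control tissues Cxcl14 rose in brown fat over white by 3.39 ± 0.40 (SE; n = 3 and 2), or 10.5-fold, with a limma adjusted p of 0.00477. It was the only one of the 37 genes called in this comparison, in which 3.95% of all genes were called higher and 1.14% lower. In knockout tissues the difference was 1.23 ± 0.43 (SE), with an adjusted p of 0.26, so that none of the 37 was called there, where 1.51% of all genes were; 1 was higher at an unadjusted p under 0.05 and 0 lower, where 8.35% and 6.99% of all genes were. The call in controls was lost, at 3.16 and an adjusted p of 0.0689, when white control arrays 2 and 3 were left out, and it held, with adjusted p of 0.0421 or less, in every other alternative tried.

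Cxcl15, a neutrophil-attracting ligand known from lung epithelium, was measured in brown fat but near background in white fat. No white control array was well above background, at -7.38 and -7.37, while the brown control samples were at -1.71, -0.60 and -5.57. The level was at least 10.4-fold higher in brown control, a bound that sets the brown mean against the lowest signal counted as above background; the limma adjusted p was 0.0979. The second Cxcl15 probe was also well above background on 4 brown control arrays and on 0 white control arrays. In white knockout the first probe was at -5.17 and -6.08, with 2 of 4 arrays above background, or at least 1.30-fold above white control, and the second was above background on 0 arrays of either white group. Without brown control array 4, the lowest brown sample, Cxcl15 was called higher in brown control, with a limma adjusted p of 0.00685, and its size is again only a bound. Both Cxcl15 probes passed the filter only through the brown arrays, so this call is not independent of the filter.

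**Figure D4:**
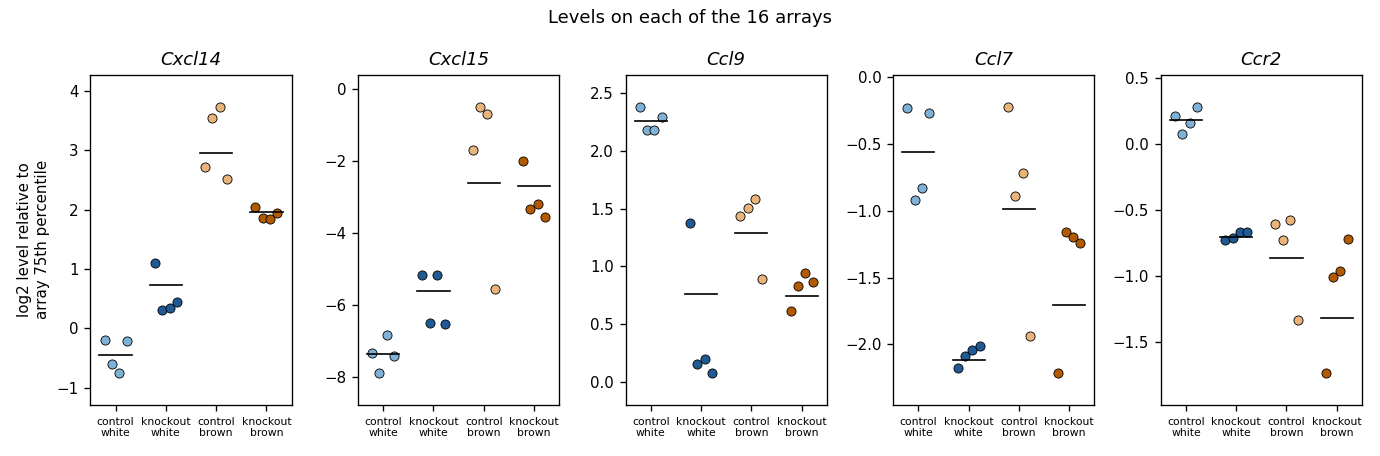
Log2 level relative to the array's 75th percentile on each of the 16 arrays for Cxcl14, Cxcl15, Ccl9, Ccl7 and Ccr2; points are arrays and bars are means over distinct samples. For Cxcl14 the 4 white knockout arrays lie above the 4 white control arrays and the 4 brown knockout arrays lie below the 4 brown control arrays.

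None of the tissue and barrier ligands, Cxcl14 among them, was called in a knockout comparison over the 9 samples. Cxcl12, the stromal ligand of CXCR4 that retains cells in bone marrow and tissue, was at 3.98 and 3.89 in white control and 3.89 and 2.88 in white knockout, a difference of -0.55 ± 0.36 (SE). A second Cxcl12 probe, which matches another transcript of the gene, gave 0.48 in white and 0.68 in brown fat where the first gave -0.55 and -0.17, so no direction is given for the gene. Ccl25, the gut and thymus ligand of CCR9, lay between 0.28 and 0.71 in all 9 samples on its brighter probe, and was lower in brown knockout without overlap, by -0.33 ± 0.17 (SE), beside 0.01 in white fat. A second, dimmer Ccl25 probe gave -0.82 in brown and -0.59 in white fat. The sign of that Ccl25 difference turned, to 0.10, in the authors' unscaled values, in which the median of all genes was at 0.31. Ccl27a, a skin ligand of CCR10, had white values of -0.42 to 0.97 and brown values of 0.10 to 1.26. Cxcl16, the ligand of CXCR6 that macrophages and dendritic cells carry, was at 0.82 and 0.97 in white control and 0.07 and 2.20 in white knockout. In brown fat Cxcl16 was at -0.29, -0.54 and -1.01 in control and -0.78 and 1.06 in knockout, so that the 3-array sample was the highest of each tissue and the genotypes overlapped. Between control tissues Cxcl16 was lower in brown without overlap, by -1.51 ± 0.73 (SE), with a limma adjusted p of 0.272. The fit without both 3-array samples gave the same difference, since it leaves the control samples as they were.

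Most of the family was lower in brown than in white control fat. Of the 37 genes 29 had the lower mean in brown, and 18 were lower and 4 higher without overlap, where 30.6% and 26.3% of all genes were; the median was -0.97, beside -0.09 over all genes. In the inflammatory set 18 of 21 were lower on average and 14 without overlap. Without the brown control sample that lacked Ucp1 the median of the 37 was -1.15, with 29 lower on average and 19 without overlap, where 32.7% of all genes were. Ccr2 was at 0.25 and 0.12 in white and -0.60, -0.65 and -1.33 in brown control, a difference of -1.04 ± 0.33 (SE). Ccl2 differed by -1.11 ± 0.44 (SE), Ccl6 by -1.22 ± 0.48 (SE) and Ccl9 by -0.97 ± 0.39 (SE). Ccl21a was 11.7-fold lower in brown control, by -3.55 ± 1.17 (SE), without overlap. The limma adjusted p of these 5 genes lay between 0.125 and 0.197, so that they were not called. When either white knockout sample was left out the Ccl21a difference stayed at -3.55, since that changes only the estimate of the spread. All 7 macrophage markers were lower in brown control without overlap, where 30.6% of all genes were. Their median was -1.13, and their summed levels were 3.63, 3.51 and 3.32 against 4.68 and 4.60 in white control. The part of macrophages in the lower chemokines was not tested.

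The 12 genes with no kept probe were Ccl1, Ccl20, Ccl22, Ccl28, Ccr1, Ccr1l1, Ccr8, Cxcl2, Cxcl3, Cxcl5, Cxcl17 and Cxcr1. The probes of Ccr1, Cxcl3 and Cxcr1 were well above background on 0 of 16 arrays. Ccl22, a dendritic cell ligand of CCR4, was above it on 9 arrays, among them 3 of 4 knockout arrays of each tissue, but never on a whole group. Cxcl5, a neutrophil attractant, was above it on 3 white control and 3 white knockout arrays and on 0 of the 8 brown arrays.

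Genes around the family were taken from 3 lists of the pathway. Of 13 further chemokines and receptors, such as Cx3cl1, Xcl1 and the decoy receptors, 0 were called by limma in either knockout comparison. At an unadjusted limma p under 0.05 there were 0 in brown, where 2.93% of all genes were higher and 4.11% lower. There was 1 in white, which was lower, where 6.39% of all genes were. That 1 was Pf4, a platelet chemokine, with a difference of -1.35 in white fat. Ackr4, a scavenging receptor that removes CCL19, CCL21 and CCL25, was called lower in brown than in white control, by -3.06 ± 0.48 (SE; limma adjusted p = 0.0163), and in knockout, by -3.16 ± 0.52 (SE; adjusted p = 0.0386). Its level did not follow the lymphoid ligands, with knockout differences of 0.05 ± 0.52 (SE) in white and -0.06 ± 0.48 (SE) in brown fat. Of 20 genes that signal below the receptors, 19 had a higher mean in knockout in each tissue, where 47.7% of all genes did in white and 40.1% in brown. By limma 0 were called. At an unadjusted p under 0.05, 3 were higher in white and 2 in brown, where 3.57% and 2.93% of all genes were. In brown fat 10 were higher without overlap, where 13% of all genes were, with a median of 1.21. Without the brown control sample that lacked Ucp1, 10 were so, where 16% of all genes were. Dock2, a leukocyte guanine exchange factor that drives migration, differed by 2.41 between brown knockout and control. Rgs1, which damps chemokine receptor signals in lymphocytes, differed by 3.01. In the list on lymphoid organ formation 12 of 14 genes had a higher mean in brown knockout, with or without that sample. Without overlap, 2 were higher and 1 lower, where 13% and 21% of all genes were. By limma 0 were called, with 1 higher at an unadjusted p under 0.05, where 2.93% of all genes were. This was Il7r, a receptor of naive T cells, which differed by 5.47 ± 1.22 (SE), with a limma adjusted p of 0.619. The lymphotoxin genes Ltb and Lta differed by 3.64 and 3.07.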

How the data were processed

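RNA of white and brown fat from male mice was measured on 16 one-colour Agilent arrays, 4 per group. The values are the processed intensity per spot of the deposited scanner files, already background-corrected per the file headers (Agilent Feature Extraction 12.0.0.7, per the file headers). The authors' deposited value table held the same intensity values per probe, without scaling. Control and outlier spots were left out. Log2 values were set relative to each array's 75th percentile, spots of a probe were averaged, and a gene was represented by 1 kept probe, the brightest on average. Probes were named through RefSeq accessions: 28223 of 41174 had a symbol. Each array read 43379 spots, of which 67.3% to 77.0% were well above background and 0 were saturated. The number of arrays and samples limits the precision.

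Arrays of a group whose difference was smaller than the scanner's own error (ratio under 1) were averaged. The averaged pairs had ratios from 0.37 to 0.64 and the others from 1.00 to 3.76. The 2 white control samples were separated narrowly, at 1.00 to 1.16. The design text names 4 biological replicates per group, so counting 9 distinct samples departs from it. The labels do not say how repeated arrays relate to animals, so p-values measure the spread between these samples only. Limma 3.58.1 in R 4.3.3 was fitted to all 15469 genes over 9 samples, with 5 residual degrees of freedom and Benjamini-Hochberg adjustment within each comparison at 0.05. The code was tested on simulated data. Where a group was not well above background, the fold is a bound.

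The genes named are the family's members under the symbol pattern, with the pathway and marker lists. Of the 37 measured members, 1 enters the counts and medians but is not reported here. Members and lists were chosen with earlier results of these data known. Alternatives were 16 separate arrays, slide and replicate blocks, within-slide fits, normexp (offset 50), quantile and median scaling, the authors' table, no dim-probe filter, the mean of probes, and leaving out each sample.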

Additional observations from a re-analysis of the deposited data

Results flagged for a closer look

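Cxcl14 differed between the tissues in its knockout difference. It was higher in white knockout than in white control, by 1.17, and lower in brown knockout than in brown control, by -0.99, and every knockout sample lay on that side of all controls of its tissue. The difference between the effects was -2.16 ± 0.59 (SE; n = 2, 2, 3 and 2 samples), with an unadjusted p of 0.0077 and an adjusted p of 1 in limma. It lay between -1.80 and -2.53 when each sample was left out in turn. Groups held 2 or 3 distinct samples, too few for a check of single samples far from their group.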

How the results depend on the processing

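Among 97 recomputed counts of called genes, 81 stayed within 1.5 times the main count. The main count was 1 between control tissues and 0 in every other comparison, so staying mostly meant remaining at 0. Of 869 recomputed gene differences 778 kept their direction and their side of the threshold. Some settings left out a sample of a group outside the comparison, where the difference cannot change. These tallies are therefore no measure of robustness. Fitted as 16 separate arrays, the counts were 13 in white, 13 in brown, 1 for the difference of effects, 12 between control tissues and 3 between knockout tissues; with the replicate block they were 15, 14, 1, 12 and 3. Both treat repeated arrays as samples. Of all genes, 44.8%, 30.6%, 4.14%, 39.3% and 25.8% were called on separate arrays and 46.1%, 32.2%, 2.1%, 40% and 25.3% with the block, in the same order, so the members' shares between tissues are below those of all genes. The numbers were not taken as pairing: same-numbered arrays correlated between -0.52 and 0.41 in white and between -0.54 and -0.04 in brown, and those of the knockout tissues, at 0.29 to 0.57, stand for only 2 distinct pairs. With slide as a block no count changed.

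Leaving out samples gave 0 to 4 calls in white, where 0% to 11% of all genes were called, and 0 to 2 between control tissues, where 1.15% to 11.4% were; without both 3-array samples there were 4 between control tissues, where 15.2% of all genes were called. A group left with 1 sample is assumed to vary like the others. In white fat the lymphoid set's median ranged from -0.70 to 3.38 over samples left out, Ccl19 from -0.66 to 3.85, Ccl21a from -0.74 to 2.92, Ccr7 from -1.96 to 4.23, Cxcl13 from -0.51 to 2.73, Cxcr4 from -0.45 to 3.35, Cxcl10 from -1.44 to 0.98 and Cxcl9 from -0.77 to 0.70. In brown fat the inflammatory median ranged from -0.73 to 0.20, Cxcl15 from -1.53 to 0.96, Cxcl9 from -0.62 to 0.36, Cxcl1 from -0.20 to 0.22 and Cxcl10 from -0.73 to 1.05. Without both 3-array samples the white values were -0.70 for the set, -0.66, -0.74, -1.96 and -0.45 for Ccl19, Ccl21a, Ccr7 and Cxcr4, and the brown values -0.16, -0.73 and 0.62 for Cxcl1, Cxcl10 and Cxcl15.

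Signs of small differences also turned elsewhere. On 16 arrays, with or without the replicate block, Cxcl10 was 0.37 and Cxcl9 0.33 in white, and Cxcl9 and the inflammatory median 0.043 in brown. With slide as a block and on slide 4 alone, that brown median was 0.11, Cxcl1 -0.16 and Cxcl15 0.46. Cxcl1 in brown was -0.010 after normexp, -0.0033 after quantile scaling and -0.032 after median centring. In the authors' unscaled table, brown values were 0.37 for the inflammatory median and Cxcl15, 0.30 for Cxcl9 and 0.10 for Ccl25, whose difference of effects was 0.28; all genes there had a brown median of 0.31. The cause was not tested. Normexp was run on median signals, chosen after seeing the data, since the mean signal it was planned for was not among the columns used here.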
